A study of Mus musculus with 6 samples.

Results

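A set of 9 genes with known roles in fetal-like and regenerating gut epithelium, Clu, Anxa1, Anxa2, Anxa3, Anxa5, Anxa10, Il33, Spp1 and S100a6, was examined in small intestinal organoids treated with MMK-1. The genes were taken by symbol, and all 9 were found among the 21397 genes of the deposited table. MMK-1 is a synthetic peptide agonist of formyl peptide receptor 2 (FPR2). The organoids were grown in Matrigel from crypts of adult Fpr2f/f mice, which carry loxP sites around Fpr2. No Cre is named for these samples, so both groups shared the floxed allele, and per the study each sample held organoids of several mice. One group received MMK-1 at 1 µM as the protocol gives it (the treatment label gives 1 mM), and the other received 0.1% DMSO as the vehicle. RNA was collected on day 5, with 3 libraries in each group. The labels do not say that the libraries came from separate cultures, and p-values therefore measure the spread between these libraries, which may be technical.

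When the gut epithelium is damaged, surviving crypt cells can leave the Lgr5-positive stem cell state and switch on a program that resembles fetal epithelium. Clu, which encodes the secreted chaperone clusterin, marks the rare revival stem cells of this program, and Anxa1, Il33, Spp1 and annexin genes such as Anxa3 and Anxa10 are among the transcripts used to recognise it. Annexins are cytosolic proteins that bind acidic phospholipids when calcium rises, and the S100 proteins are small calcium sensors that pair with several of them. Annexin A1 differs from its relatives in that its secreted form and N-terminal peptides are host ligands of FPR2, the receptor that MMK-1 activates.

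The table holds FPKM values, the fragments on a gene divided by its length and by the library's total. The values returned whole fragments, within 0.1 of a fragment, for 20676 of the 20676 genes above 0, and library totals of 35512739 to 37537463 fragments. MMK-1 replicate 3 stood apart from the other MMK-1 libraries, with a chi-square per degree of freedom of 29.4 and 34.4 against them, compared with 2.78 to 4.78 between control libraries. The cultures carried the markers of epithelium, since all 8 epithelial markers had a mean of at least 1 FPKM in both groups and summed to between 3444 and 3475 FPKM in controls against between 2505 and 2709 FPKM with MMK-1. The 6 stem cell markers summed to between 50.2 and 51.2 FPKM in controls against between 328 and 341 FPKM with MMK-1. The 8 enterocyte markers summed to between 7905 and 8042 FPKM in controls against between 4706 and 5091 FPKM with MMK-1. In bulk RNA, fewer cells of a type and less RNA per cell cannot be told apart.

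The 9 genes ranged from trace to abundant transcripts. In controls the order of mean FPKM was Anxa2, Anxa5, Clu, Anxa10, Anxa3, Anxa1, Spp1, Il33 and S100a6, and the ranges of neighbours overlapped only among the last 3. With MMK-1 the order became Anxa2, Anxa5, Anxa3, Anxa10, Anxa1, Clu, Spp1, S100a6 and Il33, in which the ranges of Anxa10 and Anxa1, of Anxa1 and Clu, and of neighbours among the last 3 overlapped. Clu thus moved from the third to the sixth place and Anxa3 from the fifth to the third. Anxa2 was at the 99.1 percentile of all genes in controls, while Spp1, Il33 and S100a6 were all below 0.1 FPKM on average in both groups.

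**Figure D1:**
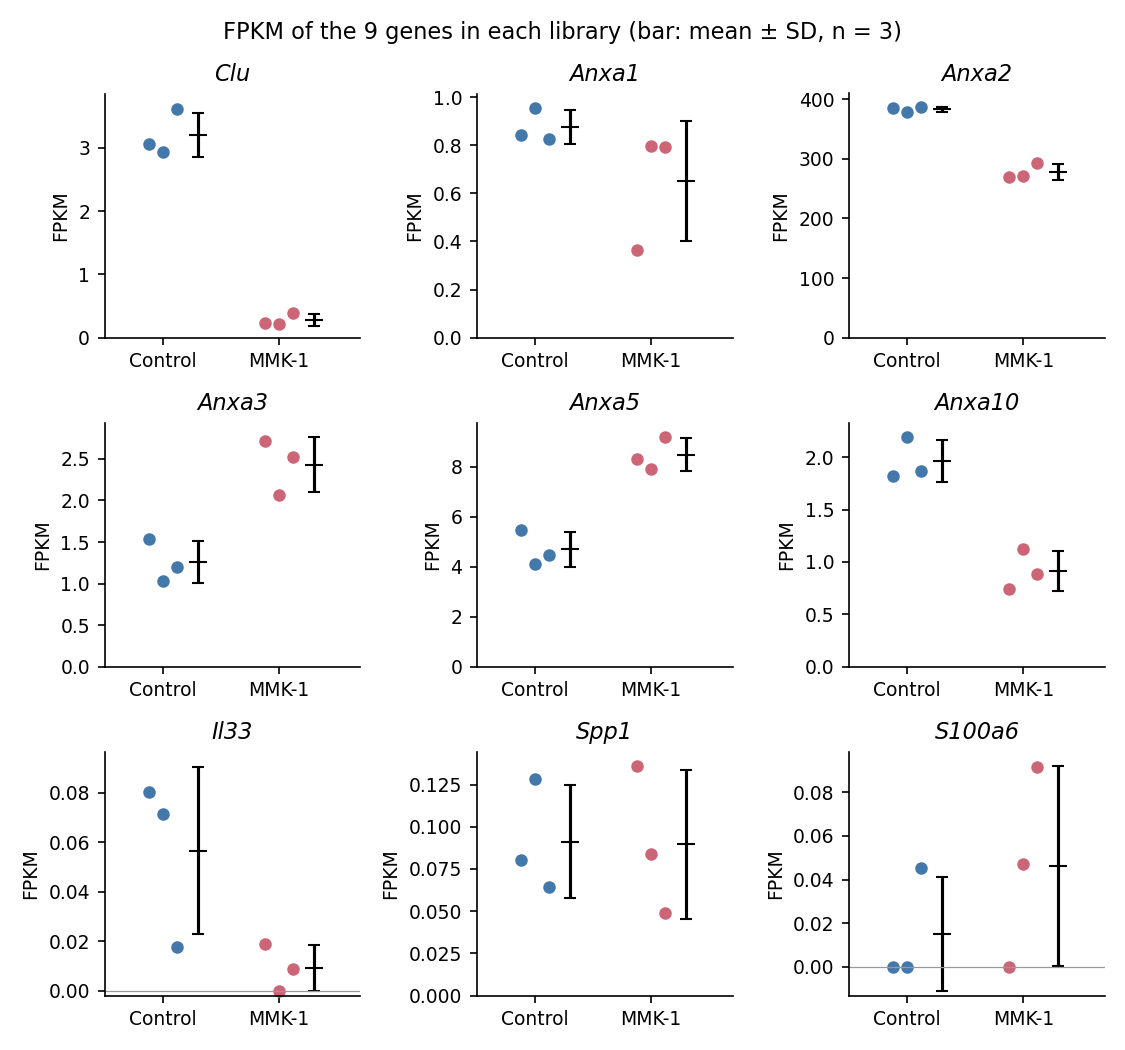
FPKM of each of the 9 genes in the 3 control (blue) and 3 MMK-1 (red) libraries, each panel on its own linear axis with FPKM on the vertical axis, with the mean and SD beside the points. Clu, Anxa1, Anxa2 and Anxa10 were lower and Anxa3 and Anxa5 higher in every MMK-1 library than in any control library. The gap was narrow for Anxa1, at 0.0265 FPKM. Of all genes tested, 76.8% did not overlap between groups either. The points of Il33, Spp1 and S100a6 intermingled near 0.

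A limma-trend test on log2(FPKM + 1) was fitted to the 10551 genes with a mean of at least 1 FPKM, with p adjusted by the Benjamini-Hochberg method over all of them. This covered Clu, Anxa2, Anxa3, Anxa5 and Anxa10, and left out Anxa1, Il33, Spp1 and S100a6. Of these 5 genes, 2 rose past the adjusted threshold of 0.05, compared with 48.5% of all genes tested, and 3 fell past it, compared with 24.7% of all genes tested. At the study's threshold of a 2-fold change with an unadjusted p of 0.05 or less, 0 of the 5 were upregulated (3.39% of all genes tested) and 1, Clu, was downregulated (3.65% of all genes tested). Clu and Anxa10 passed the filter on mean FPKM only through the control libraries, and the counts over the 5 genes are therefore given as a description. The FPKM of the 2 groups did not overlap for any of the 5 genes, as for 76.8% of all genes tested, nor for Anxa1 among the 4 genes under the filter. The median change of all genes tested was 0.13 on this log2 scale.

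Clu was the gene of the 9 that fell the most on this scale. Its FPKM was 3.07, 2.94 and 3.61 in control organoids and 0.226, 0.223 and 0.396 in treated organoids. All 3 MMK-1 libraries were far below the controls and the groups did not overlap, although the values rest on 248 to 303 fragments in controls against 18 to 33 in treated organoids. The means were 3.21 ± 0.355 FPKM in controls against 0.281 ± 0.0989 FPKM with MMK-1 (SD, n = 3), an 11.4-fold difference. The limma log2 fold change of FPKM + 1 was -1.71 (SE 0.0841, adjusted p = 3.65e-07), and with every gene above 0 in the fit, where no filter favours a group, the adjusted p was 5.30e-05. This scale understates changes of genes near 1 FPKM, and limma-voom on the whole fragments gave a log2 fold change of -3.52 for Clu (SE 0.282, adjusted p = 1.24e-06). An exact two-sided permutation test of the 6 libraries gave p = 0.1, the smallest that 3 against 3 can give.

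Clusterin is also made outside the epithelium, and some markers of other cells were lower beside Clu while others were not. The 11 stromal markers in the table summed to between 5.83 and 6.27 FPKM in controls against between 3.64 and 5.29 FPKM with MMK-1, of which 9 averaged below 0.1 FPKM. Vim, an intermediate filament gene, and Pdgfrb, a pericyte receptor, were the 2 above 1 FPKM in controls. Vim was at 4.83 ± 0.216 FPKM in controls against 3.94 ± 0.760 FPKM with MMK-1, and its groups overlapped. Its limma adjusted p was 0.0491, or 0.143 with every gene above 0 in the fit. Pdgfrb was at 1.10 ± 0.0495 FPKM in controls against 0.265 ± 0.0387 FPKM with MMK-1. Of the stromal markers at trace level, Col1a1, a fibroblast collagen gene, was at 0.0240 ± 0.00682 FPKM in controls against 0.0526 ± 0.0151 FPKM with MMK-1, without overlap. The 11 immune markers in the table summed to between 6.50 and 7.33 FPKM in controls against between 2.58 and 3.72 FPKM with MMK-1, of which 6 averaged below 0.1 FPKM. Cd68 and Itgam, a lysosomal and an integrin gene of myeloid cells, were the 2 above 1 FPKM in controls, and the macrophage marker Adgre1 was at 0 in every control library. The 6 endothelial and glial markers in the table summed to between 0.319 and 0.588 FPKM in controls and to between 0.354 and 0.511 FPKM with MMK-1. Cd68 fell from 3.17 ± 0.400 to 1.15 ± 0.403 FPKM (limma log2 fold change -0.96, adjusted p = 1.46e-04) and Itgam from 2.36 ± 0.0677 to 0.938 ± 0.135 FPKM (limma log2 fold change -0.79, adjusted p = 9.22e-06). Itgam, like Clu, passed the filter only through the control libraries (limma adjusted p = 2.67e-04 with every gene above 0 in the fit). The myeloid genes Lyz2 and Fcer1g and the antigen presentation gene Cd74 overlapped between groups, and the pan-leukocyte gene Ptprc had 5 fragments over the control libraries and 2 over the MMK-1 libraries. Csf1r, the receptor of macrophage colony-stimulating factor, was at 0.152 ± 0.0119 FPKM in controls against 0.00703 ± 0.00695 FPKM with MMK-1, without overlap, with 66 and 3 fragments in sum. Col1a1 and these 5 immune genes are named after their values were seen. The part of these cells in the change of Clu was not tested.

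The change of Clu resembled in shape that of 2 far more abundant genes. By the distance between centred log2(FPKM + 1) profiles over the 6 libraries, the nearest of all genes tested were Gm5485, a predicted gene (distance 0.135), and Slc6a20a, a transporter of imino acids (distance 0.143). Gm5485 had a mean of 255 ± 6.29 FPKM in controls against 76.3 ± 4.62 FPKM with MMK-1 (SD, n = 3). Slc6a20a had a mean of 62.0 ± 1.83 FPKM in controls against 18.8 ± 1.44 FPKM with MMK-1 (SD, n = 3). The likeness holds on the scale with the added 1, on which the log2 fold changes were -1.73 for Gm5485 and -1.68 for Slc6a20a, while the fold change in FPKM of Clu was larger than that of either.

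Of the 5 annexins, Anxa2 was the abundant one. Annexin A2 forms a tetramer with S100a10 at the cell membrane and binds plasminogen activator there. The FPKM of Anxa2 was 384, 379 and 387 in control organoids and 270, 271 and 294 in treated organoids. The MMK-1 libraries were below every control, and replicate 3 was the closest of them. Anxa2 fell from 383 ± 4.25 to 278 ± 13.4 FPKM (SD, n = 3), to 72.6% of the control mean, with a limma log2 fold change of -0.46 (SE 0.0433, adjusted p = 1.76e-05). Without MMK-1 replicate 3 the limma log2 fold change was -0.50. These values rest on 13764 to 20783 fragments in each library.

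Anxa10 fell as well, from a far lower level. Annexin A10 is a family member typical of gastric epithelium and of metaplastic or fetal-like gut. Its FPKM was 1.82, 2.19 and 1.87 in control organoids and 0.742, 1.12 and 0.883 in treated organoids. The groups did not overlap, with 127 to 153 fragments in controls against 49 to 75 in treated organoids. The means were 1.96 ± 0.201 and 0.916 ± 0.192 FPKM (SD, n = 3), a 2.14-fold difference, and the limma log2 fold change of FPKM + 1 was -0.63 (SE 0.0873, adjusted p = 1.97e-04, or 0.00266 with every gene above 0 in the fit). On whole fragments limma-voom gave -1.11 (SE 0.199, adjusted p = 5.19e-04), so that Anxa10 was past a fold change of 2 by fragments and not on log2(FPKM + 1).

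Anxa3 and Anxa5 rose. Annexin A3 is abundant in neutrophils and is among the fetal-like epithelial transcripts. The FPKM of Anxa3 was 1.53, 1.04 and 1.20 in control organoids and 2.71, 2.06 and 2.52 in treated organoids. All MMK-1 libraries exceeded all controls, with 164 to 213 fragments against 86 to 127. The means were 1.25 ± 0.253 and 2.43 ± 0.333 FPKM (SD, n = 3), 1.94-fold higher with MMK-1, and the limma log2 fold change of FPKM + 1 was 0.61 (SE 0.0997, adjusted p = 5.59e-04).

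Annexin A5 binds phosphatidylserine exposed on dying cells and is widely used to stain them. The FPKM of Anxa5 was 5.47, 4.11 and 4.48 in control organoids and 8.30, 7.91 and 9.20 in treated organoids. The lowest MMK-1 library was above the highest control. The means were 4.69 ± 0.701 and 8.47 ± 0.661 FPKM (SD, n = 3), 1.81-fold higher with MMK-1, and the limma log2 fold change of FPKM + 1 was 0.74 (SE 0.0901, adjusted p = 9.05e-05). The limma-voom log2 fold changes on fragments were 0.96 for Anxa3 and 0.86 for Anxa5, both short of a fold change of 2. Without MMK-1 replicate 3, the library that stood apart, the limma log2 fold changes of FPKM + 1 were -1.78 for Clu, -0.62 for Anxa10, 0.59 for Anxa3 and 0.69 for Anxa5, and all 4 remained past the adjusted threshold.

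**Figure D2:**
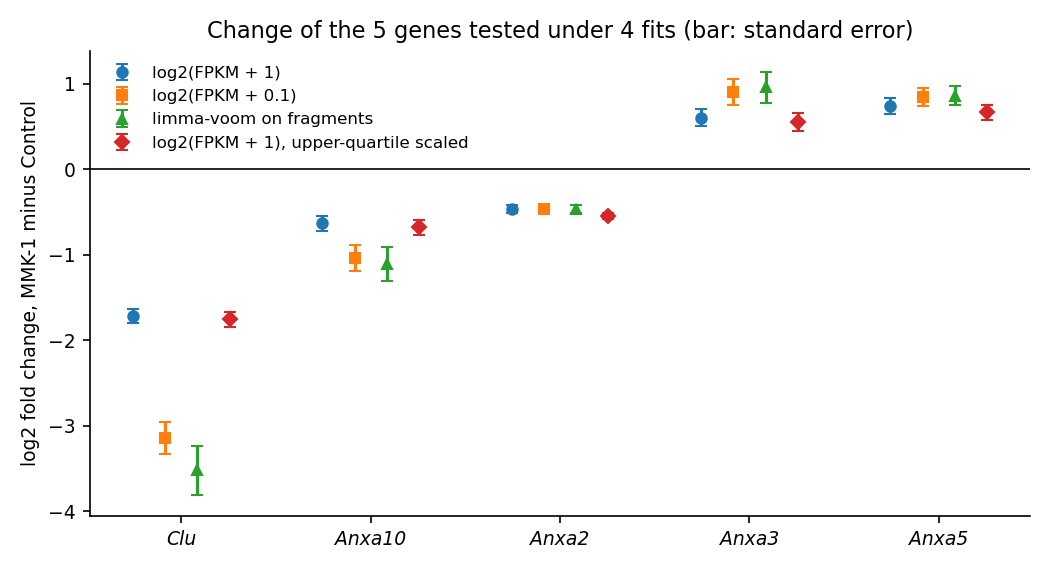
Log2 fold change (vertical axis, MMK-1 minus Control) of the 5 genes tested under 4 fits, with standard errors as bars. Each gene kept its direction under the 4 fits, while Clu and Anxa10 lay lower with a pseudocount of 0.1 or on fragments than with a pseudocount of 1, and Anxa2 differed little between fits.

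Anxa1, the gene of the FPR2 ligand annexin A1, was low in both groups, under the filter, and did not pass the fits that included it. Its FPKM was 0.842, 0.955 and 0.825 in control organoids and 0.363, 0.798 and 0.791 in treated organoids. MMK-1 replicate 1, with 18 fragments, was well below the others, while replicates 2 and 3, with 40 and 41 fragments, lay just under the lowest control, which had 43. The means were 0.874 ± 0.0707 and 0.651 ± 0.249 FPKM (SD, n = 3), and the exact permutation test gave p = 0.1. The ratio of summed fragments per total, 99 against 137, was 0.748 (95% exact interval 0.572 to 0.976, for counting error only). With every gene above 0 in the fit, the limma log2 fold change of FPKM + 1 was -0.19 (95% interval -0.48 to 0.10, adjusted p = 0.253). On fragments limma-voom gave -0.50 (95% interval -1.21 to 0.22, adjusted p = 0.192). The latter interval reaches from a fall of more than a fold change of 2 to a small rise.

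Of the other host ligands of FPR2, the acute-phase gene Saa3 was in the table. It had 0 fragments in all 3 control libraries, which allows up to 3 in each, and 3, 1 and 1 fragments in treated organoids. Both groups were at or under the limit that a count of 0 allows, and no fold is given. Camp, Saa1 and Saa2 were not analysed here.

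Il33, Spp1 and S100a6 were near the floor of detection. Il33 encodes an alarmin cytokine released by damaged epithelial and stromal cells. Control organoids held 9, 8 and 2 fragments of it and treated organoids 2, 0 and 1, and the FPKM of control replicate 3 lay below that of MMK-1 replicate 1. The ratio of the summed fragments per total, 3 with MMK-1 against 19 in controls, was 0.163 (95% exact interval 0.0310 to 0.555, for counting error only). The exact permutation test over libraries gave p = 0.2, and limma over every gene above 0 gave an adjusted p of 0.0787. The difference in pooled fragments did not pass either test over libraries.

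Spp1 encodes osteopontin, a secreted ligand of integrins and Cd44. It had 5, 8 and 4 fragments in controls against 8, 5 and 3 in treated organoids, so the groups covered the same range. The ratio of summed fragments per total was 0.974 (95% exact interval 0.461 to 2.05), the exact permutation p was 1 and the adjusted p of limma over every gene above 0 was 0.979. S100a6 encodes calcyclin, a small calcium-binding protein that is abundant in fetal-like organoids. It had 0, 0 and 1 fragments in controls against 0, 1 and 2 in treated organoids (exact permutation p = 0.4), and both groups were at or under the limit of 3 fragments a library. The interval for Spp1, for counting error only, left differences of up to about a fold change of 2 in either direction undecided. A difference in S100a6 was not detectable at this depth.

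Coordinates and promoters were taken from RefSeq on GRCm38.p6. Clu lies at chr14:65968483-65981548, Anxa2 at chr9:69453683-69491792, Anxa10 at chr8:62057042-62123193, Anxa3 at chr5:96793385-96845968 and Anxa5 at chr3:36448923-36475887. Anxa1 lies at chr19:20373434-20390671 and Il33 at chr19:29925113-29960718, Spp1 lies at chr5:104435111-104441053, and S100a6 lies at chr3:90612894-90614414. FPKM here refers to whole genes, so exons, introns and UTRs were not told apart. MicroRNA genes lie within Anxa2 (Mir3109) and Anxa5 (Mir7009), and the lncRNA gene Gm41832 overlaps Il33, and whether the counting used strand is not given in the sources used here. Of the 9 genes, 7 had at least 1 promoter window of 300 bases, from 250 before to 50 after an annotated start. The windows of the 2 annexin genes that fell and of Anxa5, which rose, are shown because they differ in base composition and in the motifs they hold.

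The windows are written 5′ to 3′ on the gene's strand. The capitals mark the letters of 3 motifs searched on both strands. The box of TATA-type promoters was read as TATAAA. The element of the AP-1 factors was read as TGANTCA. The GC box was read as GGGCGG.
Anxa2, chr9:69453433-69453732, plus strand: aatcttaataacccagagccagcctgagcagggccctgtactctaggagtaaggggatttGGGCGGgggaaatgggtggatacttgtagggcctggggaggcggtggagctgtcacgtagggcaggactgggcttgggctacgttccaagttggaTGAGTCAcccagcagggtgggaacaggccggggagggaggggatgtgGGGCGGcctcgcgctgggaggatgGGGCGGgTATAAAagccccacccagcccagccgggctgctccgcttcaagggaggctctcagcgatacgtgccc
Anxa10, chr8:62123144-62123443, minus strand: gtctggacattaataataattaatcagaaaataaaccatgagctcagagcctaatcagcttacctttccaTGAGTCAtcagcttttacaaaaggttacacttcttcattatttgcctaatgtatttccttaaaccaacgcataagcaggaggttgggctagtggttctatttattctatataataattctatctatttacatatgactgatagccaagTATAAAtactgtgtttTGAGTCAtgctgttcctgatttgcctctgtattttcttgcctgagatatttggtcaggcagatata
Anxa5, chr3:36475838-36476137, minus strand: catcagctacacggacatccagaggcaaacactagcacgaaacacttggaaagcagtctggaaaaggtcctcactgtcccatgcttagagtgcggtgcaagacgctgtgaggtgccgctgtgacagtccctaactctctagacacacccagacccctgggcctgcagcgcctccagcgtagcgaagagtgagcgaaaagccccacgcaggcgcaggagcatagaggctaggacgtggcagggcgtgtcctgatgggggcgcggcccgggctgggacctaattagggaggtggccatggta

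The Anxa10 window was 34.3% GC and held 2 AP-1 elements, the first letter of which stood 180 and 16 bases before the start, and a TATA box at 32 bases before it. The Anxa2 window was 63.7% GC and held 1 AP-1 element at 95 bases, 3 GC boxes and a TATA box at 17 bases before the start, and none of these overlapped. The Anxa5 window was 60.3% GC and held none of the 3 motifs. Over all 32851 windows of the table, 7.81% held the AP-1 element, 13.6% the TATA box and 35.7% the GC box. The last motif searched, CATTCC (the core of the TEAD element), was in 14.7% of all windows, in the Anxa1 window and in both windows of Il33, and in none of the 3 shown. A match of letters is a description of the window and does not show that a factor binds there.

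The 5 annexins were next set beside the rest of their family. The 12 annexin genes summed to 973 ± 5.42 FPKM in controls against 797 ± 15.2 FPKM with MMK-1 (SD, n = 3). Anxa2 made up 39.4% ± 0.449 of that sum in controls and 34.9% ± 1.02 with MMK-1. Anxa5 made up 0.482% ± 0.0693 in controls and 1.06% ± 0.0656 with MMK-1. Of the 7 other annexins, 4 were tested, and 0 were higher and 2 lower past the adjusted threshold of 0.05 (48.5% and 24.7% of all genes tested), with a median log2 fold change of -0.14 (0.13 for all genes tested).

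Of the other abundant annexins, Anxa13 and Anxa7 fell, and Anxa4 and Anxa11 did not pass the test. Anxa13, the intestine-restricted annexin, fell from 244 ± 1.02 to 183 ± 8.59 FPKM (limma log2 fold change -0.41, adjusted p = 3.18e-05). Anxa7 fell from 39.0 ± 1.08 to 34.4 ± 1.71 FPKM (limma log2 fold change -0.18, adjusted p = 0.0088). Anxa4 was at 202 ± 3.90 and 188 ± 12.6 FPKM and did not pass the test (limma log2 fold change -0.11, adjusted p = 0.0894), but passed it with upper-quartile scaling at -0.19. Anxa11 was at 94.3 ± 0.643 and 99.3 ± 3.26 FPKM (limma log2 fold change 0.07, adjusted p = 0.116). Among the tested annexins, a rise was found for Anxa3 and Anxa5. Anxa6, which was under the filter at 0.753 ± 0.0539 and 1.16 ± 0.164 FPKM, was higher with every gene above 0 in the fit (limma adjusted p = 0.0141). Anxa9, also under the filter at 0.371 ± 0.0293 and 0.274 ± 0.0454 FPKM, was lower in the same fit (limma adjusted p = 0.0413), but did not pass limma-voom on fragments (adjusted p = 0.0666). Both are named after their values were seen.

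**Figure D3:**
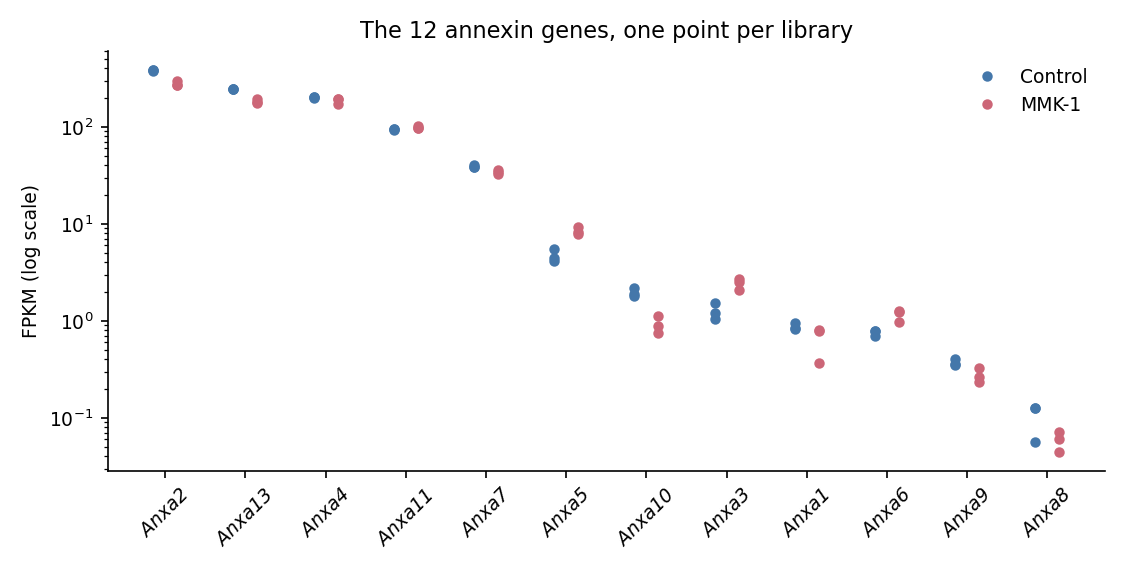
FPKM (log scale) of the 12 annexin genes, with 1 point for each library, control in blue and MMK-1 in red, ordered by the control mean. The family ranged from Anxa2 at 383 FPKM to Anxa8 at 0.104 FPKM in controls, and Anxa3, Anxa5 and Anxa6 had all red points above the blue ones at low levels.

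The S100 genes and other partners of the annexins were described from a list of 13, of which 9 were tested, and 3 were higher and 5 lower past the adjusted threshold of 0.05, beside 48.5% and 24.7% of all genes tested. Their median log2 fold change was -0.14, beside 0.13 for all genes tested. S100a10, the partner of annexin A2, fell from 242 ± 1.31 to 220 ± 6.82 FPKM (limma log2 fold change -0.14, adjusted p = 0.00958). The ratio of Anxa2 to S100a10 FPKM was 1.58, 1.57 and 1.60 in control organoids and 1.25, 1.26 and 1.29 in treated organoids, so Anxa2 fell by more than its partner (exact permutation p = 0.1, the smallest possible). Ahnak, a giant scaffold protein bound by the same tetramer, fell from 5.20 ± 0.177 to 4.02 ± 0.299 FPKM (limma log2 fold change -0.31, adjusted p = 0.0014).

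Partners of annexin A1 and of S100a6 rose. S100a11, the partner of annexin A1, rose from 14.4 ± 2.21 to 27.1 ± 1.14 FPKM (limma log2 fold change 0.88, adjusted p = 4.90e-05), while Anxa1 itself did not pass the test. Cacybp, a calcyclin-binding protein named for its contact with S100a6, rose from 23.7 ± 1.02 to 42.5 ± 5.94 FPKM (limma log2 fold change 0.81, adjusted p = 6.11e-05), at trace levels of S100a6. The gene of the list past a fold change of 2 on log2(FPKM + 1) was S100g, calbindin-D9k of absorptive enterocytes, which fell from 189 ± 14.7 to 21.6 ± 3.19 FPKM (limma log2 fold change -3.08, adjusted p = 3.71e-08). By mean FPKM alone, S100a14 (2.21-fold higher) and S100a13 (2.07-fold lower) were past it as well, and are named after their values were seen.

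Other genes of the fetal-like and regenerative program were described next. Of a list of 19, 18 were in the table and 10 were tested, of which 5 were higher and 4 lower past the adjusted threshold of 0.05, beside 48.5% and 24.7% of all genes tested. Their median log2 fold change was 0.20, beside 0.13 for all genes tested. Areg, which encodes the epidermal growth factor receptor ligand amphiregulin, rose from 52.7 ± 1.17 to 110 ± 2.80 FPKM (limma log2 fold change 1.04, adjusted p = 8.22e-08). Cldn4, a tight junction gene, rose from 20.7 ± 1.55 to 56.6 ± 2.19 FPKM (limma log2 fold change 1.41, adjusted p = 1.33e-07). Emp1, an epithelial membrane protein gene, fell from 65.8 ± 2.06 to 45.7 ± 5.28 FPKM (limma log2 fold change -0.52, adjusted p = 2.89e-04).

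The other 8 genes of the list in the table were under the filter, and are named here after their values were seen. Among them were Ly6a, which encodes the fetal and repair marker Sca-1, and Msln, which encodes mesothelin. Ly6a had 6, 1 and 5 fragments in control organoids, against 15, 16 and 18 in treated organoids. Ly6a entered the fit on fragments only through the MMK-1 libraries, since that fit asked for at least 10 fragments in 3 libraries, and its limma-voom log2 fold change of 2.21 (SE 0.561, adjusted p = 0.00489) is given as a description. With every gene above 0 in the fit, the limma adjusted p of Ly6a was 0.00147. Msln was at 0.388 ± 0.207 FPKM in controls against 1.51 ± 0.121 FPKM with MMK-1, with a limma-voom log2 fold change of 2.11 (SE 0.349, adjusted p = 2.85e-04). Il1rn, which encodes the antagonist of the interleukin-1 receptor, was at 0.857 ± 0.0868 FPKM in controls against 0.502 ± 0.0743 FPKM with MMK-1, with a limma-voom log2 fold change of -0.77 (adjusted p = 0.00695). Ccn2 averaged below 0.1 FPKM in both groups and was higher with MMK-1 without overlap, at 3 fragments in sum in controls against 13. With every gene above 0 in the fit, its limma adjusted p was 0.00792. Gja1, Ptgs2, Basp1 and Tubb6, also below 0.1 FPKM, overlapped.

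Receptors and effectors of the 9 gene products were taken from a list of 20, of which 18 were in the table and 11 were tested, and 8 were higher and 0 lower past the adjusted threshold of 0.05, beside 48.5% and 24.7% of all genes tested. Their median log2 fold change was 0.32, beside 0.13 for all genes tested. Pla2g4a, the cytosolic phospholipase A2 that annexins A1 and A5 can inhibit, rose from 1.04 ± 0.0925 to 4.92 ± 0.356 FPKM (limma log2 fold change 1.54, adjusted p = 1.68e-07). Its FPKM was 0.971, 1.14 and 0.999 in control organoids and 4.54, 5.24 and 4.98 in treated organoids, and it was the gene of the list past a fold change of 2 on log2(FPKM + 1). By mean FPKM alone, Plat, Cd44 and Lrp8 were past it as well, at 2.10-fold, 2.47-fold and 2.03-fold higher. Plat, the plasminogen activator that binds annexin A2, rose from 0.937 ± 0.167 to 1.97 ± 0.125 FPKM (limma log2 fold change 0.62, adjusted p = 1.08e-04), but passed the filter only through the MMK-1 libraries (limma adjusted p = 0.00149 with every gene above 0 in the fit).

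Some receptors of osteopontin and clusterin rose and others did not pass the test. Cd44, a receptor of osteopontin, rose from 1.63 ± 0.161 to 4.02 ± 0.426 FPKM (limma log2 fold change 0.93, adjusted p = 7.99e-06). The osteopontin-binding integrin chains Itgav, Itgb1 and Itgb5 rose with limma log2 fold changes of 0.32, 0.22 and 0.31 (adjusted p of 0.00221, 0.00119 and 9.69e-04). Lrp8 and Vldlr, which bind clusterin among other ligands, rose with limma log2 fold changes of 0.70 and 0.57 (adjusted p of 1.13e-05 and 9.75e-06). Itgb6, another osteopontin-binding chain, was at 1.78 ± 0.103 and 1.56 ± 0.145 FPKM and did not pass the test (limma log2 fold change -0.12, adjusted p = 0.119). With upper-quartile scaling Itgb6 passed as lower (limma log2 fold change -0.17, adjusted p = 0.0358). The osteopontin-binding chains Itgb3 and Itga9 and Trem2, a microglial receptor that binds clusterin, averaged below 0.1 FPKM in both groups, and their groups overlapped.

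The receptor of Il33 was at trace level like its ligand. Il1rl1, the binding chain, was at 0.0262 ± 0.00543 FPKM in controls against 0.0161 ± 0.0121 FPKM with MMK-1, and its groups overlapped. Il1rap, the second chain, was at 0.484 ± 0.0604 and 0.399 ± 0.122 FPKM, and its groups overlapped as well. Myd88, the adaptor below it, was at 10.2 ± 0.791 and 11.1 ± 0.166 FPKM and did not pass the test (limma log2 fold change 0.12, adjusted p = 0.0889).

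**Figure D4:**
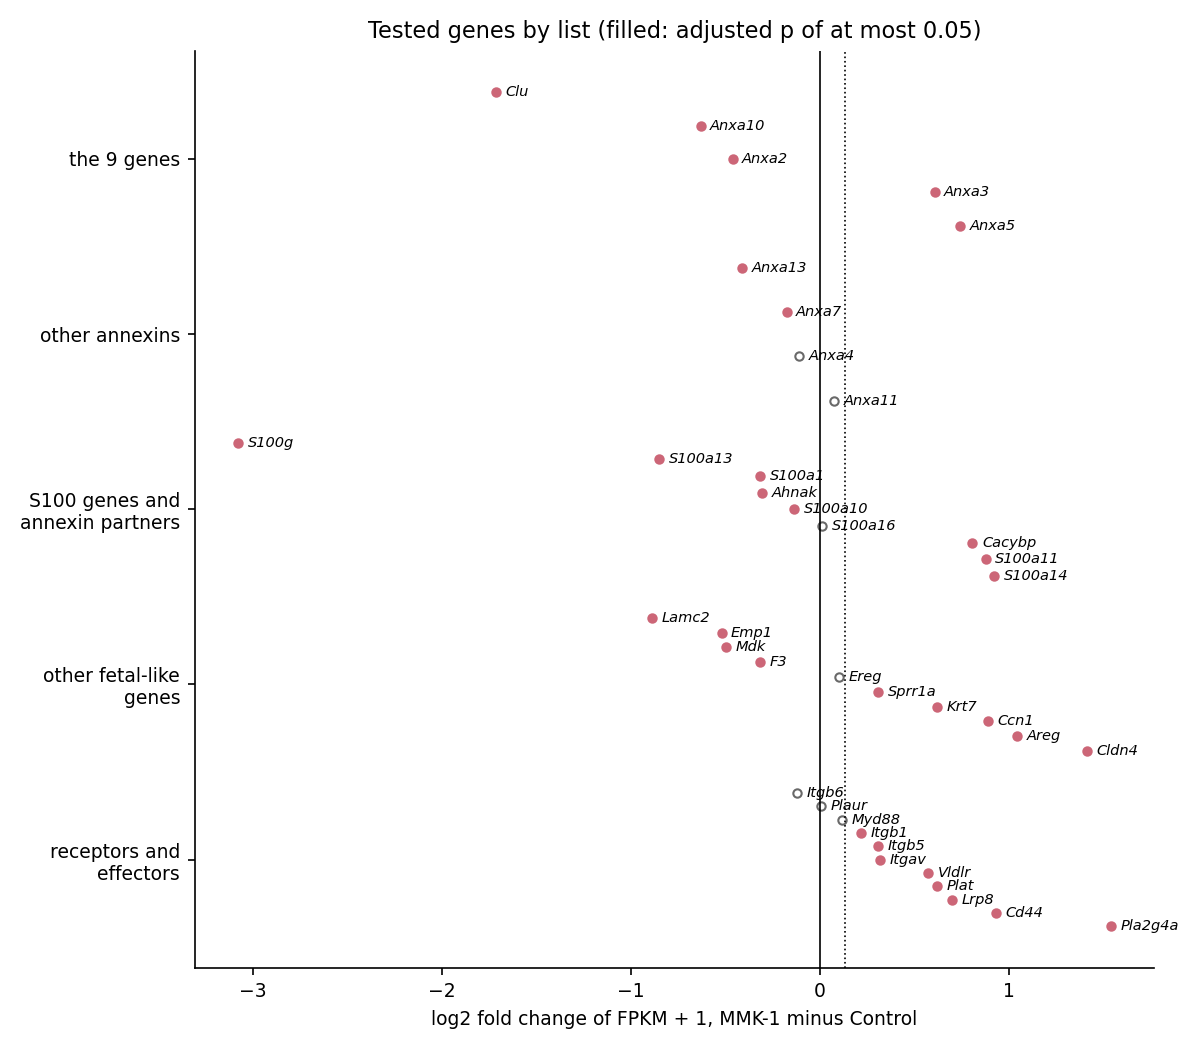
Log2 fold change of FPKM + 1 (horizontal axis, MMK-1 minus Control) of the tested genes of 5 lists, with filled points for an adjusted p of at most 0.05 and a dotted line at the median of all genes tested, 0.13. The 5 tested genes of the 9 split to both sides of 0, with 3 below and 2 above it, and 8 of the 11 receptors and effectors lay to the right with filled points.

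The stem cell and enterocyte markers gave the setting in which these genes changed. All 6 stem cell markers were tested and rose by a fold change of at least 2, beside 3.39% of all genes tested, with Lgr5 from 2.03 ± 0.113 to 21.0 ± 1.26 FPKM and Olfm4 from 4.35 ± 0.0705 to 173 ± 12.4 FPKM. Ascl2, at a limma log2 fold change of 1.02, was under a fold change of 2 with upper-quartile scaling (0.96), without MMK-1 replicate 3 (0.96) and without Control replicate 3 (0.98). Of the 8 enterocyte markers 7 were tested, and 1 was higher and 6 lower past the adjusted threshold of 0.05 (48.5% and 24.7% of all genes tested), with Apoa1, Fabp2 and Lct past a fold change of 2. The higher one was Fabp1 (limma log2 fold change 0.17, adjusted p = 0.014), which did not pass with upper-quartile scaling (adjusted p = 0.106) or with every gene above 0 in the fit (adjusted p = 0.107). Ada, the marker under the filter, was at 0.281 ± 0.0601 FPKM in controls against 1.09 ± 0.0213 FPKM with MMK-1, without overlap. With every gene above 0 in the fit, Ada was higher (limma adjusted p = 7.93e-05), and it is named after its values were seen. Of the 8 epithelial markers, 4 were higher and 3 lower at that threshold, beside the same shares, with Vil1 past a fold change of 2 at 566 ± 5.48 and 245 ± 10.9 FPKM. The part of these shifts in cell markers in the changes of the 9 genes was not tested.

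The annotation columns of the table gave the functions that the 9 genes share. Calcium-dependent phospholipid binding was listed for 5 of them, the annexins, and for 50 of all 21397 genes. Calcium ion binding was listed for 6, the annexins and S100a6, and the extracellular space for 6, Clu, Anxa1, Anxa2, Anxa5, Il33 and Spp1. Among the 6 genes of the extracellular space, Clu and Anxa2 fell, Anxa5 rose, and Anxa1, Il33 and Spp1 did not pass the test.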

How the data were processed

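RNA was sequenced in 6 libraries of mouse small intestinal organoids. The authors deposited FPKM values for each library, and the submitters' processing notes list HISAT2, HTSeq, R 3.2.0, DESeq2 and mm10, while the annotation and strand setting are not given in the sources used here. FPKM divides by length and library total, so a change in abundant genes moves the values of others. Whole fragments and totals were computed from the steps between FPKM values (tolerance 0.1). The main test was limma 3.58.1 in R 4.3.3 (limma-trend, log2(FPKM + 1), mean FPKM of at least 1, no replicate block), with limma-voom on fragments (at least 10 in 3 libraries) among the alternatives. The fits were tested on simulated data. Permutation tests were exact and two-sided, intervals were at 95% and cover counting error only, except those of limma. Tables and plots were made in Python 3.11.15 (matplotlib 3.10.9, scipy 1.17.1, pandas 2.3.3 and numpy 2.4.6).

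The 9 genes and the lists were chosen with earlier results of these data known. Genes named from the lists were those past a fold change of 2, the 2 most abundant of each list, and partners or receptors of the 9 genes, of which some are given only within counts. Genes most like a member were sought for members past a fold change of 2, and Clu was the member so treated.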

Additional observations from a re-analysis of the deposited data

How the results depend on the processing

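All 65 log2 fold changes of the 5 genes tested under the alternatives, and all 6 of the 4 genes under the filter, kept their direction and their side of the adjusted threshold of 0.05. The 549 values of single genes cover the 9 and the genes chosen by the naming rule above. Of them, 533 kept both, 13 lost the threshold (Vim and Fabp1), 3 gained it (Anxa4, Myd88 and Saa3) and 0 reversed. Genes named outside that set, such as Itgb6 and Anxa9, are not in these counts. The upregulated genes, 358 in the report, numbered 676 with a pseudocount of 0.1, 630 as TPM, 1415 with limma-voom on fragments, 1502 at a fold change of 1.5 and 1097 with a pseudocount of 0.1 and every gene above 0, a fit added after seeing the data. The downregulated genes, 385 in the report, numbered 940, 855 and 818 under the last 3 of these. Upper-quartile scaling gave 276 and 432. At a fold change of 1.5, 2 of the 9 genes were upregulated (Anxa3 and Anxa5, of the 5 tested), beside 1502 of all 10551 genes tested. In the report 0 were. Downregulated in the report was 1, and 2 (Clu and Anxa10) were under some alternatives. These were a pseudocount of 0.1 (486 of all 10551 genes tested), limma-voom (940 genes) and a fold change of 1.5 (855 of the 10551). A pseudocount of 0.1 with every gene above 0 (818 of 20676 genes) was the last of them. Leaving out 1 library at a time gave 336 to 434 upregulated and 369 to 393 downregulated genes, and 0 and 1 of the 9 genes. A replicate block gave 359 and 385 genes, and 0 and 1 of the 9. The labels do not say that the numbers pair libraries. Deviations of same-numbered libraries correlated at 0.025, -0.040 and 0.028, which cannot settle it with 3 libraries a group. The smaller pseudocount and the fragments raise changes of genes near 1 FPKM. Depth limits Il33, Spp1 and S100a6, and 3 libraries a group limit the permutation test to 0.1.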
